A study of Mus musculus with 768 samples.

Results

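The 38 genes described here encode the machinery of DNA replication and other products needed in S phase, the phase in which a cell copies its genome. They were taken as a list of symbols, and all 38 were found among the 52636 genes of the deposited tables and passed the filter on low counts in each comparison made. The cells came from greater epithelial ridge (GER) cells of the mouse cochlea, the epithelium on the inner side of the hair cells, sorted on postnatal day 2 from animals carrying Sox2-GFP, Fgfr3-CreERT2 and Ai14-tdTomato. Every culture was grown as organoids with EGF, FGF2, IGF1, CHIR99021 (an inhibitor of the kinase GSK3), valproic acid, 2-phospho-L-ascorbic acid and the TGFβ receptor inhibitor 616452, so no culture without these agents stands beside them. By the labels, groups differ only in time: 3 cultures harvested on culture day 1, 3 on day 3 and 5 on day 7. Single cells were picked by hand and sequenced with SmartSeq2, a full-length cDNA method. The labels do not say how many animals gave the cells of a culture, nor whether the cultures of a day were separate preparations, so p-values measure the spread between cultures, which may be technical.

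Replication begins when the Mcm2 to Mcm7 helicase is loaded onto origins with the help of Cdc6, a step that geminin (Gmnn) blocks once S phase has begun. Cdc45 and the GINS complex then switch the helicase on, primase and DNA polymerase alpha lay down primers, and the sliding clamp Pcna holds the polymerases to the template. Ribonucleotide reductase and thymidylate synthase supply the nucleotides, histone chaperones pack the new DNA, and transcription factors of the E2F family drive many of these genes as a cell leaves G1. In the mouse cochlea the sensory epithelium leaves the cell cycle before birth, and GER cells of the newborn can re-enter it in culture.

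Of all cells, 92.6% were retained, between 37 and 86 of a culture, and a culture summed to between 26391412 and 72483565 reads on genes. The retained cells were epithelial: 99.7% had a read of Epcam or Cdh1. In counts per 1e6 reads on genes (CPM), 5 endothelial genes together reached at most 11.7, with Pecam1, Kdr and Cldn5 at 0 in every culture, 5 melanocyte genes at most 9.06, with Dct, Tyr and Tyrp1 at 0, and 7 immune genes at most 9.77. Over the 11 cultures, 7 mesenchyme genes lay between 0.458 and 43 CPM, 8 hair cell genes between 21.2 and 321.1, 5 glia genes between 54.9 and 117.98, 5 neuron genes between 7.00 and 58.5, and 4 erythroid genes at or below 0.647. A set of 9 GER epithelium genes summed to between 11697 and 15876 CPM on day 1, 5639 and 8757 on day 3, and 3450 and 5548 on day 7. Cells were called G2/M class when, after thinning to 200000 reads, they had a read in at least 3 of the G2 and mitosis genes Mki67, Top2a, Cdk1, Birc5, Ccnb2 and Tpx2, none of which is among the 38. The name stands for these reads, and no phase was assigned to a cell. The G2/M class held 15.3% to 23.7% of the cells of a day 1 culture, 52.8% to 63.6% on day 3 and 25.3% to 87% on day 7. Day 7 culture 5 stood apart from the other 4 of its day, with the smallest share of G2/M class cells, the fewest genes per cell (median 5681) and the largest mitochondrial share (median 6.76%). It is also the only day 7 culture in the second of the 2 deposited files.

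The promoters of these genes were searched for the E2F motif, because E2F factors are the known regulators of S phase transcription. RefSeq promoters (GRCm38.p6, 250 bases before to 50 bases after the start) were on hand for 28 of the 38 genes. The letters TTTCCCGC, TTTGGCGC, TTTCGCGC or TTTGCCGC, on either strand, occurred in 12 of the 28 (42.9%), against 2.61% of the 27025 genes with such a promoter and 4.46% of the 11405 of these that were tested for change. Among 52 other replication genes the share was 34.6%, and among 32 G2 and mitosis genes it was 3.13%. CCAAT, the letters bound by NF-Y, gave another order: 71.4% of the replication promoters, 75% of those of the G2 and mitosis genes and 41.1% of all. A match describes the letters in this window and shows no binding. Below, as examples, are the matched stretches of 6 genes, each reaching up to 20 bases to either side and ending before the RefSeq start. Cdc6, Hells, Mcm7 and Uhrf1 also had a match before the start, and their stretches are not printed. Each runs 5′ to 3′ along the strand of its gene, and capitals mark the E2F letters.
Mcm6 (chr1:128359725-128359835, minus strand): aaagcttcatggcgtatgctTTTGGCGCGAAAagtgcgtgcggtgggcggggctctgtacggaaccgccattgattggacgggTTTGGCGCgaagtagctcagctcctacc
Mcm5 (chr8:75109336-75109387, plus strand): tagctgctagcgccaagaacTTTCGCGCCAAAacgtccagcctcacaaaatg
Cdca7 (chr2:72476128-72476175, plus strand): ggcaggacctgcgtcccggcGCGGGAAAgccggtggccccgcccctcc
Dtl (chr1:191575545-191575572, minus strand): atcagaaagcgtgacgtcagTTTGGCGC
Casp8ap2 (chr4:32615274-32615321, plus strand): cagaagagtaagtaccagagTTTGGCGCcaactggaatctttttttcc
Pola1 (chrX:93632266-93632313, minus strand): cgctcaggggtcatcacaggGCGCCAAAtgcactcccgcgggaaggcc

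The Mcm6 stretch holds 3 matches, 2 of which overlap on opposite strands, and in Mcm5 the 2 matches overlap in the same way. The matches of Mcm6 begin at -110, -106 and -47 and that of Dtl at -8, counted with -1 as the last base before the start. The other genes with a match were Mcm3, Mcm7, Cdc6, Uhrf1, Hells and Clspn. Those without one included Prim1, Rrm1, Rrm2, Pcna and Cdc45. Of the 12 genes with a match, 5 were called higher on day 7 than on day 1 in the comparison below, and of the 16 without one, 6 were.

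Levels of different genes are compared only per length, as CPM per kilobase of exon, averaged over the 11 cultures. Pcna was the most abundant of the 38 (80.2 ± 20.5 CPM per kilobase, SD, n = 11 cultures), though its processed copies Pcna-ps1 and Pcna-ps2 are also in the table and may share its reads. Rrm2, the small subunit of ribonucleotide reductase, followed at 51.1 ± 26, and Tipin, which steadies the stalled fork, at 47.5 ± 15.2. Of the helicase subunits Mcm6 was at 41.8 ± 18 and Mcm2 at 22.8 ± 7.72. The intervals of mean ± SD of neighbours in this order overlapped, although the means of Pcna and Rrm2 lay outside each other's interval. The lowest were Wdr76 (1.39 ± 0.243), Dscc1 (2.02 ± 1.27), a subunit of a clamp loader used in cohesion, and Clspn (2.20 ± 0.879), the checkpoint adaptor claspin.

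The first comparison asks when replication genes change in culture. On day 3, none of the 38 genes was called against day 1 in edgeR at an adjusted p under 0.05 (0.0115% of all genes tested were called higher; the DESeq2 Wald test called 2 of the 38 higher, and 0.978% of all genes). Yet 36 of the 38 were higher, with a median log2 fold change of 0.64 against 0.02 over all genes. An unadjusted edgeR p under 0.05, in either direction, was found in 15 of the 38 and in 1617 of all 17466 genes tested. In 23 of the 38 the 3 day 3 cultures all lay above the 3 day 1 cultures, which was the case for 9.88% of all genes. By day 7, 12 of the 38 were called, all higher than on day 1 (3.55% of all genes were called higher), and the median log2 fold change was 0.80 with 38 of 38 higher. The day 7 cultures all lay above the day 1 cultures in 11 of the 38 (8.71% of all genes). In the other 27, culture 5 reached into the day 1 range in 22 (alone in 7), culture 2 in 18 (alone in 3), culture 1 in 7, culture 3 in 3 and culture 4 in 0. Against day 3, day 7 brought 0 calls (0.183% of all genes were called higher). The DESeq2 Wald test called 1 of the 38 higher, and 1.4% of all genes. An unadjusted edgeR p under 0.05, in either direction, was found in 1 of the 38 and in 2066 of all 17466 genes tested. No gene of the 38 separated those cultures without overlap in the upward direction (2.99% of all genes), and the median was 0.22. Both comparisons with day 1 use the same 3 day 1 cultures. In sums over all cells of a culture, more cells in S phase and more of an RNA per cell cannot be told apart.

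**Figure D1:**
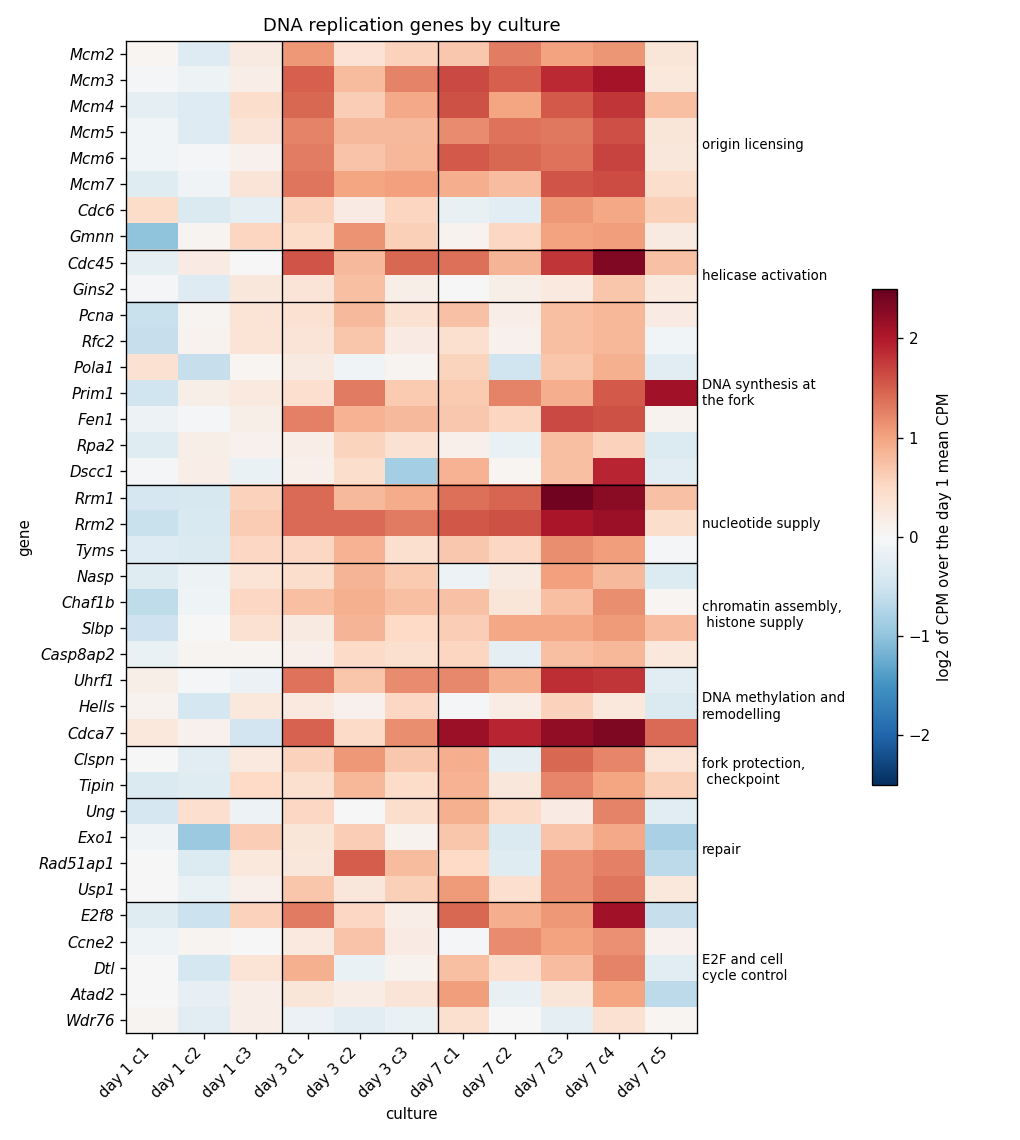
Log2 of the CPM of each replication gene over its mean CPM on day 1, for the 11 cultures (columns, c1 to c5 for cultures 1 to 5) and the 38 genes (rows, by role). Rises stand out in Mcm2 to Mcm7, Cdc45, Rrm1, Rrm2 and Cdca7 on days 3 and 7, while day 7 culture 5 is the lowest of its day in 26 genes and has the highest Prim1.

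The genes of origin licensing had 6 calls among 8, and these were the 6 helicase subunits Mcm2 to Mcm7. Mcm6 (ENSMUSG00000026355.11, chromosome 1 from 128331590 to 128359664) was at 94.9, 96.7 and 108.2 CPM in the day 1 cultures, 241.4, 163.8 and 178.1 on day 3, and 291.1, 271.7, 254.9, 320.97 and 121.4 on day 7. All cultures of days 3 and 7 lay above those of day 1, with day 7 culture 5 nearest to them. Its log2 fold change for day 7 against day 1 was 1.33 (SE 0.28, adjusted p 0.0154 in edgeR). Mcm3 was at 66.1, 62.7 and 76.2 CPM on day 1, 193.1, 117.7 and 161.5 on day 3, and 215.6, 193.2, 248.5, 289.6 and 82.5 on day 7. Its log2 fold change was 1.59 (SE 0.34, adjusted p 0.0167 in edgeR). Here too no later culture reached down to day 1. Mcm4 was at 53, 50.0 and 84.5 CPM on day 1, 168.6, 96.3 and 120.7 on day 3, and 189.3, 124.3, 179.8, 216.04 and 105.6 on day 7, again with no overlap (1.38, SE 0.29, adjusted p 0.0166 in edgeR). Mcm5 was at 61.4, 51.4 and 80.4 CPM on day 1, 152.6, 113.1 and 113.3 on day 3, and 146.1, 164.3, 159.6, 197.2 and 79.7 on day 7. It was the only subunit whose day 7 range reached into that of day 1, through day 7 culture 5 (1.21, SE 0.27, adjusted p 0.0218 in edgeR). The subunits form 1 ring in the cell, and the last 2 of them rose as well. Mcm7 was at 53.2, 61.3 and 82.1 CPM on day 1, 164.9, 130.6 and 133.6 on day 3, and 123.6, 112.4, 193.6, 201.8 and 88.4 on day 7 (1.14, SE 0.28, adjusted p 0.0308 in edgeR). Mcm2 was at 104.3, 81.1 and 117.6 CPM on day 1, 213.3, 129.9 and 149.97 on day 3, and 160.1, 246.5, 203.9, 216.3 and 124.4 on day 7 (0.91, SE 0.25, adjusted p 0.0459 in edgeR). In both, every later culture lay above every day 1 culture. The loader Cdc6 had 0.54 (SE 0.35, adjusted p 0.378) and the licensing inhibitor Gmnn 0.64 (SE 0.34, adjusted p 0.286), neither called.

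Of the helicase activators, Cdc45 was at 11.6, 15.8 and 14 CPM on day 1, 41, 24.3 and 37.3 on day 3 and 35.9, 24.7, 48, 68.5 and 23 on day 7. The ranges of day 1 and day 7 did not meet, and the log2 fold change was 1.53 (SE 0.37, adjusted p 0.0288 in edgeR). Gins2, a subunit of the GINS complex, was at 38.8, 31.8 and 48 CPM on day 1, 49.2, 66.2 and 43.5 on day 3, and 39.5, 43.6, 46.7, 64 and 46.7 on day 7, with a log2 fold change of 0.28 (SE 0.23, adjusted p 0.496 in edgeR). The cultures of Gins2 overlapped between all days. 
At the fork, 1 of 7 genes was called. Prim1, the catalytic subunit of primase, was at 49.1, 77.3 and 83 CPM on day 1, 92.9, 171.6 and 110.3 on day 3, and 109.2, 165.6, 130.5, 201.4 and 300.8 on day 7. Its highest culture was day 7 culture 5, which had the lowest value among the day 7 cultures in 26 of the 38 genes and the highest in Prim1 alone. The log2 fold change was 1.38 (SE 0.34, adjusted p 0.0306 in edgeR). Pola1, the catalytic subunit of the polymerase that works with primase, moved from 36 ± 11.3 to 46.8 ± 18.1 CPM (log2 fold change 0.38, SE 0.33, adjusted p 0.537 in edgeR). Pcna had 97.9, 150.9 and 182.1 CPM on day 1, 187.6, 251.1 and 187.5 on day 3 and 237.9, 160.7, 240.4, 255.3 and 165.2 on day 7. Day 3 lay above day 1 throughout while day 7 overlapped with it, and the log2 fold change for day 7 was 0.56 (SE 0.24, adjusted p 0.173 in edgeR). Rpa2, part of the complex that coats single-stranded DNA, was at 67.1, 91.5 and 88.7 CPM on day 1, 92.1, 121.6 and 106.99 on day 3, and 89.6, 73.2, 138.3, 122.1 and 64.7 on day 7. Day 3 lay above day 1 and day 7 overlapped with both, and the change to day 7 was among the 3 smallest (0.24, SE 0.25, adjusted p 0.614 in edgeR). The flap nuclease Fen1 (1.04), the clamp loader subunit Rfc2 (0.44) and Dscc1 (0.86) were not called.

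Nucleotide supply gave 2 calls among 3 genes, with some of the largest fold changes. Rrm1, the large subunit of ribonucleotide reductase, was at 63.6, 64.1 and 127.4 CPM on day 1, 227.8, 149.7 and 160.8 on day 3, and 219.6, 234.7, 452.3, 406.4 and 140.5 on day 7. Each later culture exceeded each day 1 culture, and the log2 fold change for day 7 was 1.77 (SE 0.39, adjusted p 0.0201 in edgeR). Rrm2 was at 39.8, 44.8 and 91.2 CPM on day 1, 157.2, 156.7 and 143.6 on day 3, and 170.8, 175.7, 241.999, 256.3 and 79.5 on day 7. Day 7 culture 5 fell below day 1 culture 3 for Rrm2, and the log2 fold change was 1.66 (SE 0.37, adjusted p 0.0215 in edgeR). Thymidylate synthase Tyms went from 94.8 ± 35.3 to 157.2 ± 47.8 CPM (0.73, SE 0.29, adjusted p 0.145 in edgeR).

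In chromatin assembly, Slbp, which binds the stem-loop of histone mRNAs, was the 1 call among 4 genes. It was at 84.8, 120.01 and 158.2 CPM on day 1, 141.9, 216.98 and 171.3 on day 3, and 185.2, 237.6, 238.1, 252.7 and 207.8 on day 7 (log2 fold change 0.89, SE 0.22, adjusted p 0.0310 in edgeR). Its day 7 cultures all lay above day 1, culture 5 included. The histone chaperones Nasp (0.42) and Chaf1b (0.65) and the histone gene regulator Casp8ap2 (0.48) were not called, and Nasp has a processed copy, Nasp-ps1, that may share reads.

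The 3 genes tied to DNA methylation at the fork spanned the widest range. Cdca7, which targets the remodeller Hells to chromatin, had 20.8, 18.6 and 12.4 CPM on day 1, 48, 24.1 and 38.7 on day 3, and 75.7, 65.1, 80.7, 87.2 and 46.2 on day 7. The days did not overlap between day 1 and either later day, and the log2 fold change of 2.04 (SE 0.30, adjusted p 0.00306 in edgeR) was the largest of the 38. Hells itself, the partner of Cdca7, was at 39.9, 27.9 and 44.9 CPM on day 1, 44.7, 40.4 and 53.7 on day 3, and 36.2, 42.6, 56, 45.2 and 29.3 on day 7, overlapping throughout (log2 fold change 0.16, SE 0.24, adjusted p 0.755 in edgeR). Uhrf1, which reads hemimethylated DNA for the maintenance methyltransferase, was at 76.6, 67.7 and 62.3 CPM on day 1, 175.9, 111.5 and 155.4 on day 3, and 158.4, 129.9, 247.1, 237.7 and 57.1 on day 7 (1.27, SE 0.38, adjusted p 0.0652 in edgeR). Day 7 culture 5 lay below all day 1 cultures and the other 4 above them.

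No gene of fork protection, repair or E2F and cell cycle control was called, 11 genes in all. Usp1, the deubiquitinase that acts on Pcna, came nearest: it was at 46.5, 40.8 and 50.4 CPM on day 1, 74.7, 55.5 and 69.7 on day 3, and 95.7, 61.7, 101.1, 115.5 and 55.3 on day 7, with no overlap between days 1 and 7 (0.90, SE 0.25, adjusted p 0.0507 in edgeR). Tipin was at 46.1, 48.3 and 84.6 CPM on day 1, 78.9, 105.9 and 82.5 on day 3, and 109.2, 72.3, 139.6, 118.8 and 90.1 on day 7, with day 7 culture 2 inside the day 1 range (0.83, SE 0.26, adjusted p 0.0766 in edgeR). Dtl, which directs the destruction of the licensing factor Cdt1, was at 56.8, 42.2 and 72.5 CPM on day 1, 105.6, 51 and 61 on day 3, and 96.6, 76.9, 98.1, 135.6 and 47.7 on day 7, and its days overlapped (0.67, SE 0.33, adjusted p 0.244 in edgeR). The repressor E2f8 had a larger fold change, 1.22, with a larger error (SE 0.51, adjusted p 0.170). Wdr76 changed least of the 38, with 9.12, 7.22 and 9.69 CPM on day 1, 7.80, 7.19 and 7.75 on day 3, and 11.4, 8.74, 7.39, 11.3 and 9.01 on day 7, all overlapping (0.14, SE 0.30, adjusted p 0.829 in edgeR).

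The same fit gave 9 calls among 60 further replication genes on day 7 against day 1, all higher, with 59 of 60 above 0 and a median log2 fold change of 0.74. The smallest adjusted p was that of Rfc5, a clamp loader subunit, from 54.6 ± 14.3 to 143.5 ± 44.9 CPM (1.39, SE 0.27, adjusted p 0.0109 in edgeR). Ccna2, the cyclin of S phase and G2, followed (2.31, SE 0.49, adjusted p 0.0164), then the origin-firing kinase Cdc7 (1.38, adjusted p 0.0276), thymidine kinase Tk1 (1.61, adjusted p 0.0290), the polymerase delta subunit Pold2 (1.12, adjusted p 0.0291) and the origin recognition subunit Orc4 (0.71, adjusted p 0.0327). No gene of this list was called on day 3 against day 1 or day 7 against day 3 in edgeR. In these fits 17 and 2 of the 60 had an unadjusted p under 0.05, as did 1617 and 2066 of all 17466 genes tested. Of the proliferation markers, Mki67 had 1.95 (adjusted p 0.0408 in edgeR) and Top2a 1.88 (adjusted p 0.0436). A list of 31 further G2 and mitosis genes summed to between 552.6 and 982 CPM in the day 1 cultures, 2314 and 2881 on day 3 and 1493 and 5051 on day 7, so this list too was lowest on day 1, while the 9 GER genes were highest there. The part of the GER genes in the day differences was not tested, and the change within cells with few G2/M genes is given below.

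The day 7 calls rested on single cultures and on both deposited files. Without day 1 culture 1, 1 of the 38 was called (0.755% of all genes called higher), as was the case without day 1 culture 2 (1.17%), and in both fits it was Cdca7. Without day 7 culture 4 there were 7 calls (1.83%), and without day 7 culture 5 there were 15 (4.29%). The share called over all genes moved in the same direction as the count among the 38 in each of these fits. With the file as a term beside day, 4 genes were called (2.73% of all genes called higher): Cdca7 (1.74), Prim1 (1.72), Slbp (1.08) and Mcm6 (0.99). In the first file alone, with 1 day 1 culture and 4 day 7 cultures, 0 were called by edgeR (0.0159% of all genes; 20 of the 38 had an unadjusted p under 0.05) with a median of 1.14. In the second, where day 7 is culture 5 alone and takes its spread from the remaining cultures, 1 was called (0.22% of all genes) with a median of 0.08, and it was Prim1 (1.91, adjusted p 0.0449 in edgeR).

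Single cells differed in how many of the genes they had a read of. Of the 38 genes, the median cell had a read in 15.5, 12 and 14 in the day 1 cultures, 23, 25 and 25 on day 3, and 25, 16, 29, 28 and 11 on day 7, at 200000 reads per cell. Day 7 culture 5 was the lowest of all 11. A read in at least 19 of the 38 was found in 29.7% of the cells of day 1, 57.7% of those of day 3 and 60.1% of those of day 7. Cells with 19 to 25 genes were 5.71%, 10.8% and 11.1% of those of days 1, 3 and 7, and cells with 26 or more were 24%, 46.8% and 49%. Cells with 13 to 18 were 24.6%, 18% and 10.4%, and cells with at most 12 were 45.7%, 24.3% and 29.5%. These bands differ in width, so their shares do not give the shape of the distribution by themselves.

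**Figure D2:**
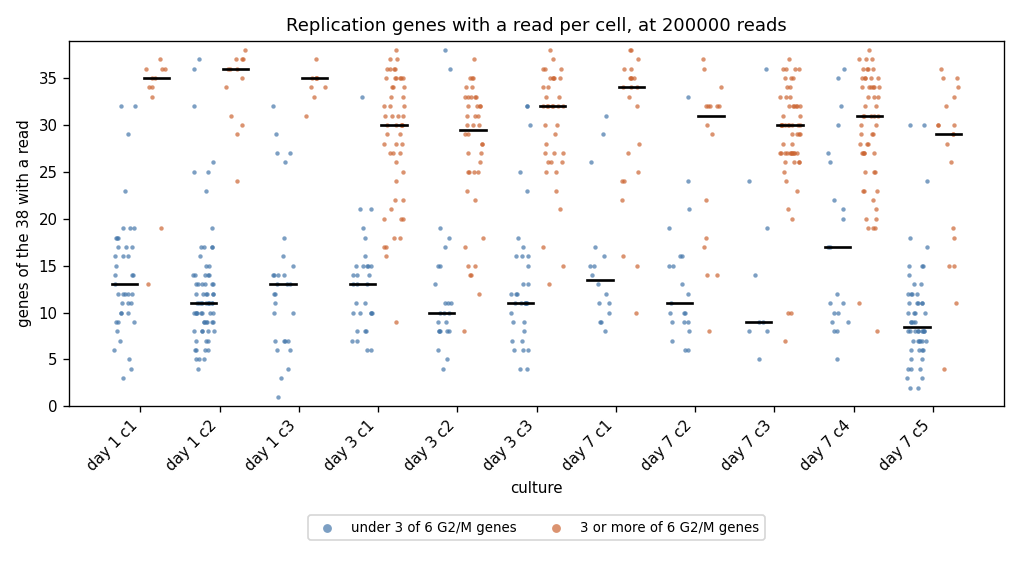
Number of the 38 replication genes with a read in each cell, thinned to 200000 reads, by culture, for cells with a read in under 3 (blue) and in at least 3 (orange) of 6 G2/M genes; bars are medians. Median counts lie between 8.5 and 17 in the blue cells and between 29 and 36 in the orange cells of every culture, and a minority of blue cells sits as high as the orange ones.

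Most cells with many replication genes were also in the G2/M class, and a smaller set was not. In the G2/M class 97% of the cells of day 1 (32 of 33), 87.2% of those of day 3 and 89.7% of those of day 7 had a read in at least 19 of the 38. Among the other cells 20, 12 and 22 cells did, which is 14.1%, 13.5% and 17.9%. By culture this second share ran from 11.1% to 17.2% on day 1, from 12.5% to 14.7% on day 3 and from 5.36% to 42.9% on day 7. The day 7 cultures spread most, with culture 4 highest and culture 5 lowest.

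Within a culture the genes moved together from cell to cell. Over all pairs of the 38 the Spearman correlation of log2 reads, averaged over the 11 cultures, had a median of 0.45, with the highest value for Rrm2 and Mcm5 (0.67) and the lowest for Ung and E2f8 (0.20). Rrm2 had the highest mean correlation with the other genes (0.56) and Casp8ap2 the lowest (0.29). With the mean of the 6 G2/M genes, Rrm2 correlated at 0.58 and Ung at 0.04. Whether the cells of a culture shared a library preparation is not given in the labels. Detection at this depth enters these correlations, so they serve as a description.

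Cells of the G2/M class were next compared with the other cells of the same culture, to ask how far each gene goes with reads of those 6 genes. Cells with 3 to 5 of the 6 had a read in a median of 30 of the 38 genes, and cells with all 6 in 31. The class may therefore hold S phase cells, and a higher value in it does not place a gene in G2 or mitosis. Counts were summed per culture and class, with culture as a term. All but 1 of the 38 genes were higher in the class at an adjusted p under 0.05 (8.35% of all genes were called higher), with a median log2 difference of 1.96 against -0.03 over all genes. In 30 of the 38 the class was higher in all 11 cultures, and in the other 8 in 10 of them. The share of all genes that were higher in every culture is not given here, so these counts describe the 38 alone. The class also had more genes per cell, with a median of 7144 against 6549, and the part of this in the difference was not tested.

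**Figure D3:**
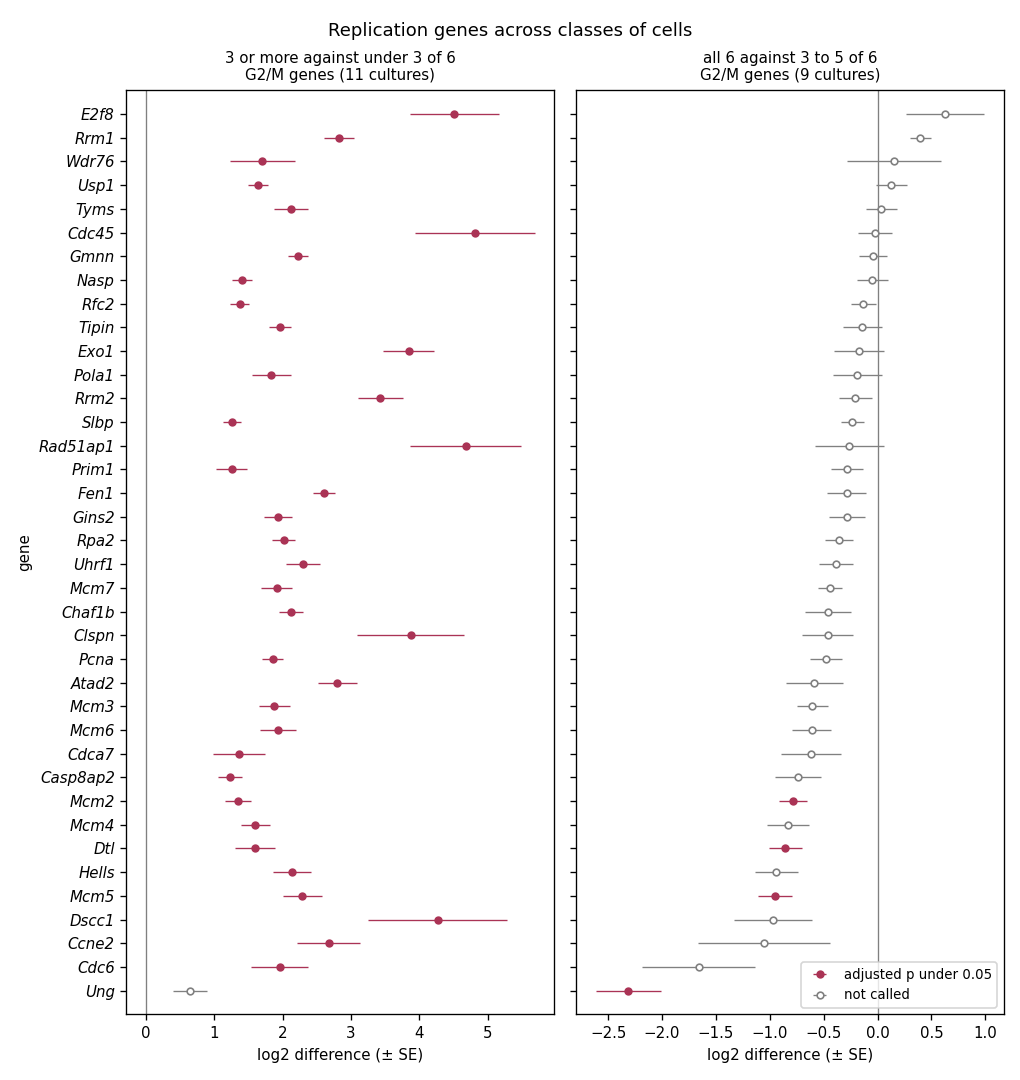
Log2 differences with SE for the 38 genes between cells with at least 3 and with under 3 of 6 G2/M genes (left, 11 cultures) and between cells with all 6 and with 3 to 5 (right, 9 cultures); filled points have an edgeR adjusted p under 0.05. Ung is the only open point on the left, and on the right Ung, Mcm5, Dtl and Mcm2 are the filled points, all below 0.

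The widest differences belonged to genes with few reads outside the class. Cdc45 had between 37.1 and 92.6 CPM in the class (median 59.7) and between 0 and 30.2 in the other cells (median 3.41), a log2 difference of 4.81 (SE 0.88, adjusted p 0.00162 in edgeR). Rad51ap1 (4.68), E2f8 (4.51) and Dscc1 (4.27) followed. The ranges of Cdc45 in both classes did not overlap. Cdc45 reads were found in 58.7% ± 10.2 of class cells and 6.34% ± 5.35 of the others (SD, n = 11 cultures). Rrm2 had between 177.04 and 324.5 CPM in the class and between 4.16 and 91.3 outside it (3.43, SE 0.33, adjusted p 6.79e-06 in edgeR). The exonuclease Exo1 (3.84) and claspin (3.87) had differences of similar size. Small differences were seen for Slbp (1.26), Casp8ap2 (1.24), Prim1 (1.25) and Mcm2 (1.35), whose RNA was also present outside the class: Slbp in 77.1% of those cells and Prim1 in 65.8%. Ung, the uracil glycosylase that removes uracil from new DNA, had 17.4 to 67.3 CPM in the class (median 32.3) and 9.81 to 36.3 outside it (median 19.7). It was higher in 10 of 11 cultures with overlapping ranges (0.64, SE 0.25, adjusted p 0.116 in edgeR).

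By day, the class difference was called in 32 of the 38 on day 1 alone (1.62% of all genes called higher), 29 on day 3 alone (2.6%) and 25 on day 7 alone (2.61%). Median log2 differences were 2.499, 2.14 and 1.62 in this order. The make-up of the class also changed with day, as given below, and its part in these values was not tested.

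A finer split within the class, added after the data were seen, set cells with all 6 G2/M genes against cells with 3 to 5 of them, in the 9 cultures with at least 5 of each. It separates cells with the full late set from those with part of it. In the day 1 cultures 1, 5 and 5 class cells had all 6, against 10, 8 and 4 with 3 to 5. On day 3 these counts were 23, 19 and 21 against 30, 23 and 17. On day 7 they were 11, 6, 38, 36 and 10 against 12, 10, 22, 21 and 9. Of the 38 genes 33 were lower in cells with all 6, with a median of -0.37 against 0.02 over all genes, and 4 were called lower: Ung, Mcm5, Mcm2 and Dtl. In the whole transcriptome 5 genes were called lower (0.0408% of 12258), and the fifth was Cdt1 (-1.04, SE 0.19, adjusted p 0.0222 in edgeR), the licensing factor that loads the Mcm helicase with Cdc6; Cdt1 was named after its values were seen. In these 9 cultures the median cell had 7477 genes with all 6 and 6734.5 with 3 to 5, and the part of this in the differences was not tested. The DESeq2 Wald test called 12 of the 38 lower (0.628% of all genes) and Rrm1 higher.

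Ung was at 5.89 to 44.7 CPM (median 10.8) in cells with all 6 genes and at 24.3 to 113.5 (median 51.3) in those with 3 to 5. It was lower in 9 of 9 cultures (log2 difference -2.31, SE 0.30, adjusted p 0.00186 in edgeR). Mcm5 was at 97.7 to 196.8 CPM (median 144.7) against 174.3 to 362.8 (median 277.7), lower in 9 of 9 (-0.95, SE 0.16, adjusted p 0.0121 in edgeR). The ranges of Ung and of Mcm5 over cultures overlapped between the classes, although each culture on its own had the lower value in cells with all 6. Mcm2 was lower in 9 of 9 (-0.79, SE 0.13, adjusted p 0.0125), as was Dtl (-0.85, SE 0.15, adjusted p 0.0224). The Dtl call was lost without culture in the model and without any of day 3 cultures 1 and 2 and day 7 cultures 1, 3 and 4 (adjusted p up to 0.0889), and that of Mcm2 without day 7 culture 4 (0.0510). Cdc6 (-1.66, SE 0.52, adjusted p 0.363) and Hells (-0.94, SE 0.20, adjusted p 0.0644) were lower in 9 of 9 without a call. In the other direction, Rrm1 was higher in 9 of 9 cultures (0.40, SE 0.09, adjusted p 0.128), also without a call.

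The change from day 1 to day 7 was then taken within each class, since the share of G2/M class cells moved with day. In cells outside the class 32 of the 38 genes were still higher on day 7, with a median of 0.76, and 1 was called (0.436% of all genes were called higher). That gene was Mcm6, with 34.9, 38.6 and 43.9 CPM on day 1, 54.3, 92.8 and 93.8 on day 3, and 122.7, 182.9, 112.4, 192.1 and 68.5 on day 7 (1.79, SE 0.34, adjusted p 0.0289 in edgeR). All cultures of days 3 and 7 lay above those of day 1. Without day 7 culture 5 the median was 0.82, and Mcm6 was again the 1 call (1.97, SE 0.29, adjusted p 0.0130 in edgeR; 0.346% of all genes were called higher). Errors were wide here for the rarest transcripts, such as Cdc45 (1.66, SE 1.95).

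Within the G2/M class the direction was the other way for most genes. On day 7, 28 of the 38 were lower than on day 1, with a median of -0.26 against 0.03 over all genes, and 3 were called, all lower (2.43% of all genes were called lower). This comparison was added after the data were seen, and its day 1 side rests on 11, 13 and 9 cells. Of these, 1, 5 and 5 had all 6 G2/M genes. On day 7 it was 11, 6, 38, 36 and 10 of 23, 16, 60, 57 and 19 class cells. In the split above, 33 of the 38 genes were lower in cells with all 6, Hells among them. The class was thus not the same mix on both days, and the part of this in the changes was not tested. Hells was at 148.4, 131.4 and 128.9 CPM in the class on day 1, 59.5, 62.7 and 81.4 on day 3, and 55.4, 49.2, 59.3, 54.3 and 58.3 on day 7. Every later culture lay below every day 1 culture (-1.30, SE 0.18, adjusted p 0.00181 in edgeR). Rpa2 (-0.85, SE 0.17, adjusted p 0.0169) and Exo1 (-0.92, SE 0.24, adjusted p 0.0486) were the other calls, and Exo1 and Rpa2 on day 7 also lay below all day 1 cultures. In sums over all cells the values of these genes had been 0.16, 0.24 and 0.39 in the same order, none called, while the share of class cells was larger on day 7.

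**Figure D4:**
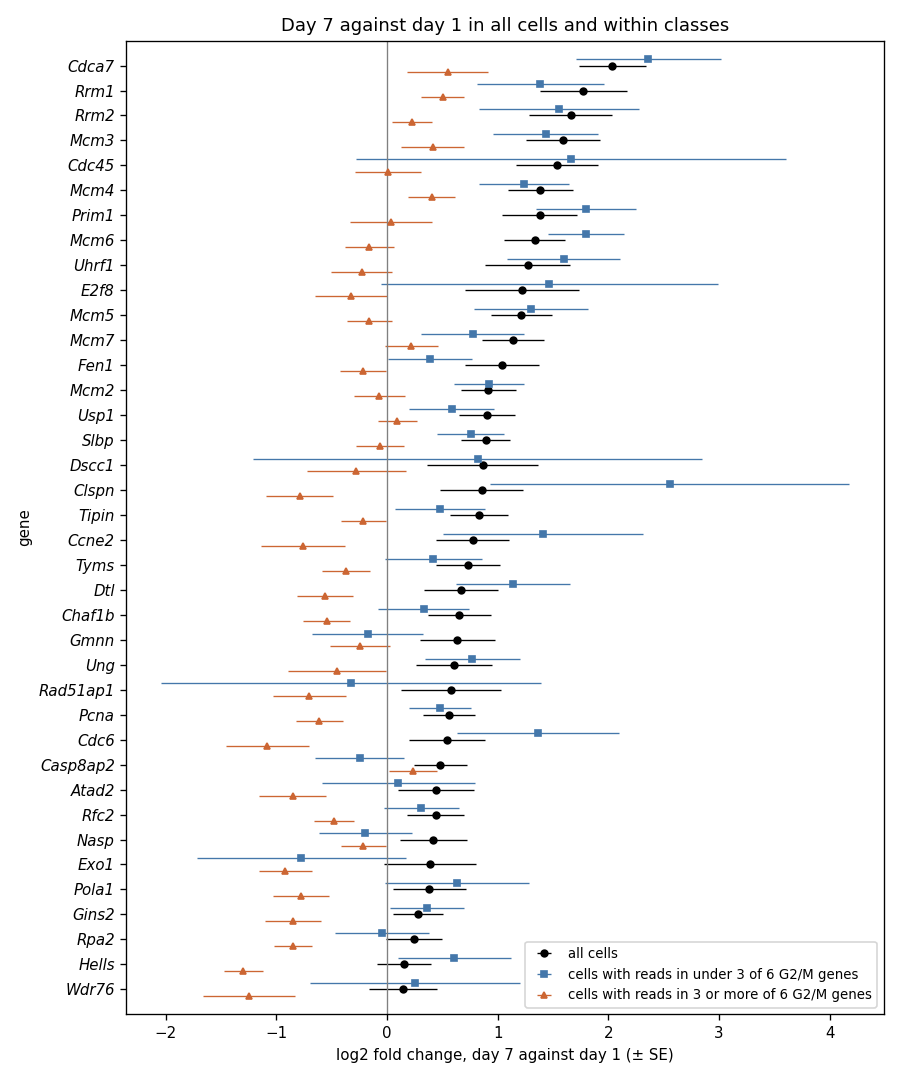
Log2 fold change with SE for day 7 against day 1 of the 38 genes, ordered by the value in all cells (black), in cells with under 3 of 6 G2/M genes (blue) and in cells with at least 3 (orange). Blue points lie above 0 for 32 genes and orange points below 0 for 28.

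The test of the difference itself, day 7 minus day 1 in the class difference, was negative for 33 of the 38 with a median of -0.90 (0.18 over all genes), and called Prim1 alone (0.106% of all genes were called in either direction). Prim1 had 26.6, 39.5 and 54.8 CPM outside the class on day 1, 41.2, 110.8 and 56.1 on day 3, and 83.4, 125.2, 79.7, 160.3 and 252.8 on day 7. In the class it had 146.9, 317.97 and 171.7, then 119.9, 209.4 and 165.6, and then 128.8, 201.8, 136.04, 213.3 and 409.1. Outside the class each day 7 culture exceeded each day 1 culture, while within it the days overlapped. The class difference of Prim1 was 2.36 on day 1 and 0.61 on day 7 in fits of each day alone, and its change was -1.73 (SE 0.28, adjusted p 0.0415 in edgeR). The share of cells outside the class with a Prim1 read averaged 49.4% (SD 2.75) over the 3 cultures of day 1, 52.8% (SD 3.93) over the 3 of day 3 and 83.5% (SD 10.04) over the 5 of day 7. Mcm6 had the next smallest p for this change (-1.86, SE 0.35, adjusted p 0.0968). The shift in the make-up of the class with day, given above, may enter these values as well, and its part was not tested.

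**Figure D5:**
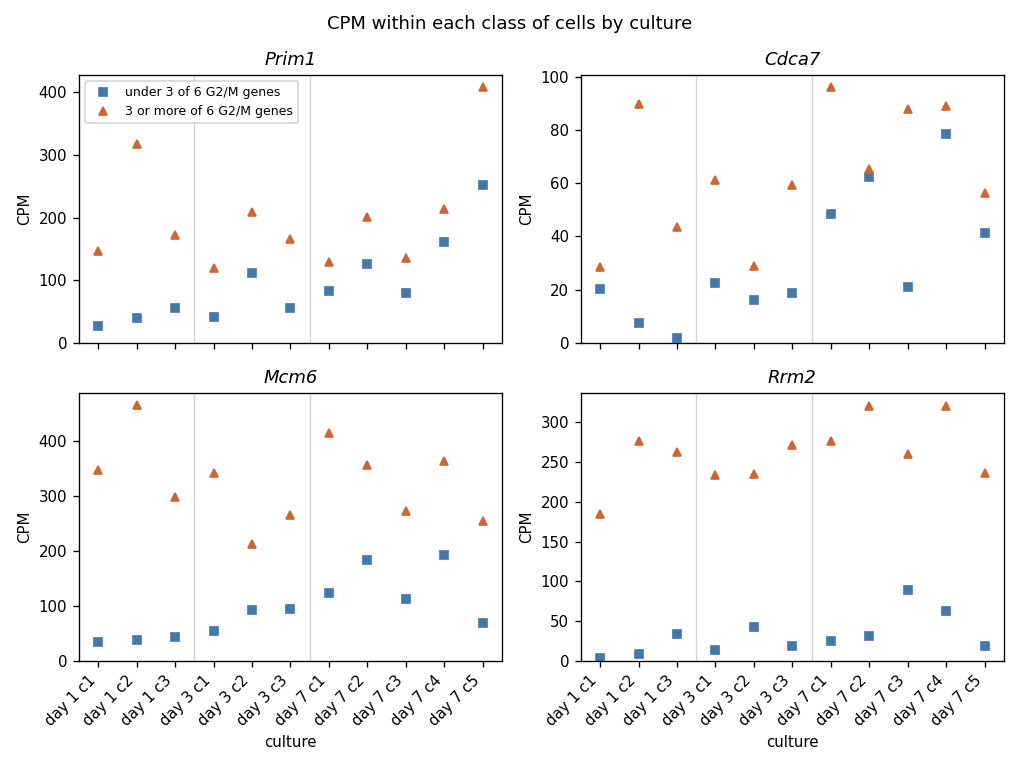
CPM of Prim1, Cdca7, Mcm6 and Rrm2 by culture in cells with under 3 (blue squares) and at least 3 (orange triangles) of 6 G2/M genes, on linear axes from 0. Blue values of Prim1 on day 7, from 79.7 to 252.8, all exceed those of day 1, and for Rrm2 the blue and orange values stay apart in every culture.

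Several of these genes start close to a gene on the other strand, which gives a local comparison. Within 1000 bases, 10 of the 38 have such a neighbour in GENCODE M21, and 9 of the 10 neighbours were tested. None was called for day 7 against day 1 in edgeR (each adjusted p 0.127 or above). Ufd1, beside Cdc45, had 0.11 (SE 0.18) where Cdc45 rose by 1.53, and Ap4m1, beside Mcm7, by 0.12 (SE 0.43). D6Wsu163e, beside Rad51ap1, had 1.05 (SE 0.40) where Rad51ap1 had 0.58 (SE 0.45). Between classes of cells, Ufd1 differed by 0.35 (SE 0.14, adjusted p 0.110) against 4.81 for Cdc45, and Tmem258, beside Fen1, by 0.08 (SE 0.12, adjusted p 0.737) against 2.60. Ints7, beside Dtl (0.53, adjusted p 0.0268), and Mfap1a, beside Wdr76 (0.53, adjusted p 0.0168), were called higher in the class. Whether the counting used strand is not given in the sources used here, so reads of genes that overlap a member, as Ufd1 does Cdc45, cannot be assigned with certainty.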

How the data were processed

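SmartSeq2 reads of 768 single cells were deposited by the authors in 2 files, in the unit of expected counts per gene. The submitters' processing notes name STAR 2.5.3a, RSEM 1.3.0, mm10 and GRCm38, with no role or order; the annotation and the use of strand are not given in the sources used here. SmartSeq2 has no molecular identifiers, so PCR copies are counted as reads. Column names were mapped to samples through the labels, and a culture is a day and replicate number in them.

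Expected counts were rounded per cell. Cells were kept from 50000 reads and 1500 genes upward if mitochondrial reads made up 20% or less; no doublet caller was run. Counts were summed per culture, or per culture and class, and tested with edgeR 4.0.16 (TMM, filterByExpr, quasi-likelihood F-test) in R 4.3.3, with Benjamini-Hochberg adjustment over all genes tested (17466 between days) and a threshold of 0.05. Days were fitted over all 11 cultures without a block, and classes with culture as a block. The fit was tested on simulated data. limma 3.58.1 and DESeq2 1.42.0 served as alternatives, beside other normalization, filters, thinning, the file, and each culture left out. Tables and figures were made with Python 3.11.15, numpy 2.4.6, pandas 2.3.3 and scipy 1.17.1. Coordinates are from GENCODE M21 where the identifier version matched (34 of 38 genes).

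The 38 genes, the other lists and the tests were chosen with earlier results of these data known. All 38 could be named; values in every culture are given for the 8 with the smallest adjusted p on day 7 against day 1, the most abundant per length in each of 9 roles, and the 3 with the smallest and 3 with the largest change, and for other called genes. Of other genes, the rule names the 6 further replication genes with the smallest adjusted p, Mki67, Top2a and divergent neighbours. The tests within the G2/M class, the split at all 6 genes, and the change of the class difference with day were added after the data were seen. Deviations of same-numbered cultures of different days from their day means had correlations from -0.010 to 0.061 over 9 pairs (median 0.029). Pairs with other numbers had -0.085 to 0.072 over 30 pairs (median -0.013). The labels do not say that a number links cultures of different days, so numbers were not taken as pairs.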

Additional observations from a re-analysis of the deposited data

Results flagged for a closer look

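One result met a rule for a closer look: the difference between cells with many and few G2/M genes changed with day for Prim1, by a test of that change itself. The change was -1.73 on the log2 scale (day 7 minus day 1, SE 0.28, edgeR adjusted p 0.0415), from a class difference of 2.36 on day 1 to 0.61 on day 7. Cells with few G2/M genes held more Prim1 on day 7 in all 5 cultures than in any of the 3 day 1 cultures. The test was added after the data were seen, and its day 1 side rests on 33 cells of the G2/M class. No day 7 group of the 38 genes had a culture past the critical gap of 0.71 for 5 values, a rule that chance meets in about 1 of 20 groups.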

How the results depend on the processing

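For day 7 against day 1, 12 genes were called; 4 were with the file as a term, 0 in the first file alone, 1 in the second file alone, 1 in cells with few G2/M genes, 1 in these without day 7 culture 5, and 3, all lower, in cells with many. Leaving out 1 culture gave 1 to 15 calls, and 0 to 0 for both other day comparisons. DESeq2 called 16 genes for day 7 against day 1, all higher, where its share over all genes is not given here. It called 2 genes between days 1 and 3 and 1 between days 3 and 7 (0.978% and 1.4% of all genes called higher). In the split of all 6 against 3 to 5 genes it called 13, of which 12 were lower (0.628% of all genes called lower). Leaving out 1 culture gave 35 to 38 calls between classes and 2 to 6 in that split. A replicate block gave 13 calls for day 7 against day 1 and 0 for either other day comparison. Its numbers were not shown to pair the cultures (5 of 9 correlated best with their own number). Without the culture as block, 36 were called between classes. For these fits, and for the class comparisons with 1 culture left out, the share called over all genes is not given here. Their counts show only how the number of calls among the 38 moved with the processing.

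Among 18 genes followed for day 7 against day 1, under 26 alternatives each, 71 values lost the call, 9 gained one, 22 reversed, and the rest kept direction and side of the threshold. Reversed values in cells with many G2/M genes were Mcm6 -0.16, Mcm5 -0.16, Gins2 -0.85, Pcna -0.61, Slbp -0.062, Uhrf1 -0.23, Tipin -0.21, Dtl -0.56, Wdr76 -1.24, Hells -1.30 and Rpa2 -0.85. In the second file alone they were Pcna -0.0089, Uhrf1 -0.19, Dtl -0.26, Hells -0.31 and Rpa2 -0.47. Others were Wdr76 -0.11 and Hells -0.0073 after thinning, Wdr76 -0.056 in cells with few G2/M genes without day 7 culture 5, Rpa2 -0.044 in cells with few G2/M genes, and Hells -0.015 without day 1 culture 2 and -0.029 without day 7 culture 3, with a range from -0.029 to 0.31 over the cultures left out. With the class set at 4 of 6 genes, Ung reversed to -0.23. The file is largely tied to day at day 7, where 4 of 5 cultures share the first, so the cause of these shifts was not tested. The smallest classes on day 1 limit what can be detected there.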
